A study of Mus musculus with 2 samples.

Results

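Heat shock proteins, the chaperonin CCT and the folding proteins of the endoplasmic reticulum (ER) were examined in mouse CD4 T cells that were activated with or without extra OX40 ligand (OX40L). The genes were chosen by symbol: those that begin with Hspa, Hspb, Hsp90, Hspd, Hspe, Hsph, Dnaja, Dnajb, Dnajc, Pdia or Cct with a digit, together with Calr and Canx. This gave 83 genes of the 17097 with a value, read by 180 of 28898 probe sets that the platform annotation pairs with 1 symbol. By the known place of their proteins, 46 were assigned to the cytosol, 19 to the ER, 9 to mitochondria and 9 to other places. Hspa1a, Hsp90ab1, Hspd1, Hspb6, Pdia2, Dnajb7 and Dnajc25 were not analysed here.

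Naive Foxp3-negative CD4 T cells (high CD62L, low CD44) came from 6 weeks-old C57/Bl6 mice with a Foxp3-eGFP reporter, which marks regulatory T cells. They were cultured for 48 hours with soluble antibody to CD3, the signalling part of the T cell receptor, and with antigen-presenting cells (APC). The APC were splenocytes depleted of T cells whose division had been blocked with 50 ug/ml mitomycin C. They came from wild type mice (Wt APC) or OX40L transgenic mice (OX40L-Tg APC). The promoter of the transgene and the number of mice are not given in the sources used here. Living CD4 T cells were sorted again before RNA was taken, and 1 Affymetrix HT MG-430 PM array was hybridised for each kind of APC. With 1 array a group there is no replicate, and no difference below has a test, a standard error or a p-value.

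Molecular chaperones bind unfolded proteins and keep them from aggregating while they fold. Hsp70 proteins work in cycles of ATP hydrolysis that J proteins (the Dnaj genes) start and exchange factors such as the Hsp110 proteins end, and Hsp90 proteins act later on kinases, receptors and other clients. CCT is a ring-shaped cytosolic chaperonin for actin and tubulin, and Hsp60 with Hsp10 forms a similar chamber in mitochondria. In the ER, Hspa5 (BiP), Hsp90b1 (GRP94), the lectin chaperones Calr and Canx and the protein disulfide isomerases (the Pdia genes) fold proteins that will be secreted or placed in membranes. Heat shock factors control many of the cytosolic genes, and the unfolded protein response, with its sensors ATF6, IRE1 and PERK, controls many of the ER genes. T cells that start to make cytokines enlarge this secretory pathway.

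Levels are RMA intensities in arbitrary units, and of each pair the Wt APC value comes first. A difference is the log2 level with OX40L-Tg APC less that with Wt APC, so that positive values mean more signal with OX40L-Tg APC. Pearson's r between the arrays was 0.993 across the 45141 probe sets. The floor was the median of each array, 14.7 units on both, and 10541 genes reached it on at least 1 array. Of the 83 chaperone genes, 65 reached it on both arrays, 4 with OX40L-Tg APC only, 1 with Wt APC only, and 13 on neither. Genes that only other organs use, 28 in all, gave a background level at their 95th percentile, which was 30.0 units with Wt APC and 39.4 units for the other array. All 10 T cell markers with a value, of 12 listed, were above it on both arrays, Cd4 with 1410 and 1143 units, whereas the adipocyte genes Adipoq, Fabp4 and Lep stayed below 10 units although the extraction protocol speaks of adipose tissue. Levels are compared only within a gene, since probe sets differ in how strongly they bind.

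The ER group read slightly higher with OX40L-Tg APC, the cytosolic group less so, and the mitochondrial group showed no common direction. With OX40L-Tg APC, 17 of the 19 ER genes above the floor read higher, with a median difference of 0.18 and a range from -0.09 to 0.48. Of 36 cytosolic genes, 26 had the higher value, with a median of 0.08 and a range from -0.23 to 0.65. Among genes above background on at least 1 array, the counts were 15 of 17 in the ER and 23 of 32 in the cytosol. Of 9 mitochondrial genes, 4 had the higher value, with a median of -0.02. Over all genes above the floor, 54.0% had the higher value and the median was 0.02. The ER median exceeded the cytosolic one by 0.10, and without replicates there is no error to set this against. For single genes, the scale used below is the SD of 0.14 between probe sets of the same chaperone gene (41 genes, 111 probe sets above the floor). Over all genes this SD was 0.18. It comes from the same pair of arrays and holds no variation between cultures, sorts or hybridisations. A difference larger than it is therefore not shown to exceed the error between cultures.

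**Figure D1:**
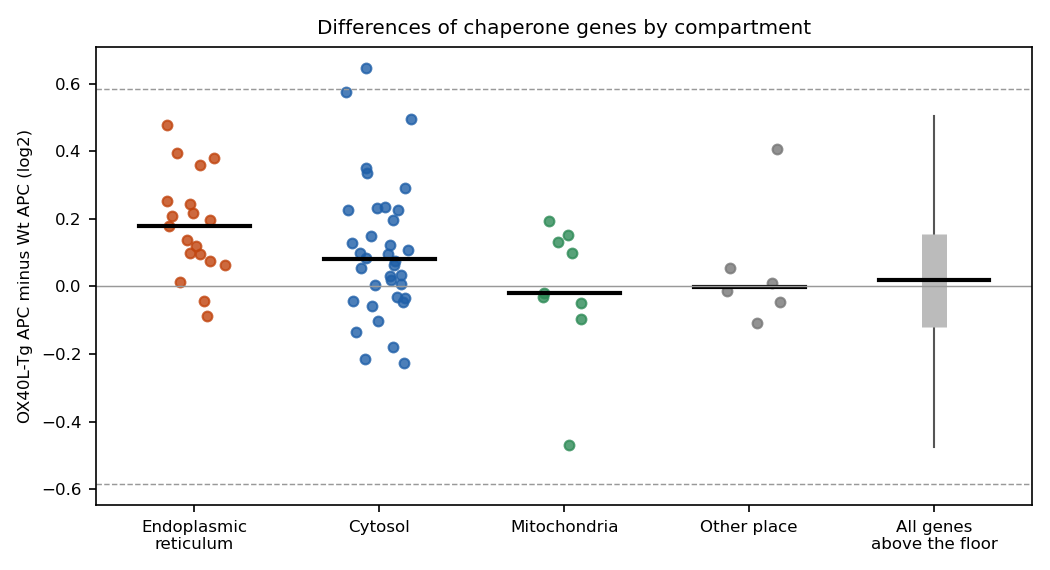
Log2 difference between the OX40L-Tg APC array and the Wt APC array for each chaperone gene above the floor, by compartment; a point is a gene and a black bar the median. The last column gives the median, the quartiles (grey box) and the 5th to 95th percentiles (line) of all 10541 genes above the floor, and dashed lines mark 1.5-fold. Most ER points lie above 0, with a median of 0.18, and the cytosolic points spread around a median of 0.08.

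The differences were small in every compartment. Only Dnajc21 was at least 1.5-fold higher, which is 1 of 70 genes above the floor against 3.85% of all genes, and 0 were at least 1.5-fold lower, against 3.36%. None reached 2-fold, a size that 1.56% of all genes passed upwards and 1.17% downwards. A smaller size of 0.2 on the log2 scale, chosen after the values were seen, was reached upwards by 8 of 19 ER genes and 10 of 36 cytosolic genes, against 19.8% of all genes. Downwards it was reached by 0 ER genes, 2 cytosolic genes and 1 mitochondrial gene, against 16.9%. The upward counts include genes that passed the floor only with OX40L-Tg APC, Dnajb14 in the ER and others in the cytosol. Hspb1, counted downwards, passed it only with Wt APC. All of these were below background on both arrays.

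Marker genes also differed between the same arrays. The summed level of the 10 T cell markers was 25762 and 21942 units, with 9 of 10 lower. Of 8 B cell genes 7 had a value, and their sum was 957 and 1469 units. The 6 MHC class II genes summed to 2664 and 3547 units, 4 dendritic cell genes to 95.3 and 104 units and 5 macrophage genes to 67.8 and 81.5 units. Of these dendritic cell and macrophage genes only Flt3 was above background, and it read 46.1 and 43.3 units. The dendritic cell and macrophage sums are therefore mostly background signal. The marker list with the largest median difference was the erythroid one, in which 2 of 4 genes had a value and summed to 1176 and 219 units. Hba-a1, a globin, made up nearly all of it and read 1161 and 207 units. The 4 neutrophil genes with a value, 0 of them above background on both arrays, summed to 60.5 and 51.9 units. The 2 CD8 genes summed to 219 and 270.2 units. Plasma cells are rich in ER chaperones. Of 6 plasma cell genes 4 had a value, with sums of 7050.1 and 7562 units carried by Irf4 and Xbp1, which activated T cells also express. Sdc1 and Mzb1 had no value, and Jchain read 6.68 and 7.51 units, below background. Prdm1, on the same list, read 170.4 and 191 units. The part of B cells, plasma cells, other APC and red cell RNA in the differences below was not tested. In bulk RNA of sorted cells, fewer cells of a type and less RNA per cell cannot be told apart.

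Among the ER chaperones of the Hsp70 and Hsp90 families, all members read higher with OX40L-Tg APC. Hspa5, the major ER Hsp70 and a regulator of the unfolded protein response sensors, read 2974 and 3542 units, a difference of 0.25. Its other probe set differed by 0.23. Hspa5 stood at the 85.0th percentile of the differences of all genes above the floor. Hsp90b1, the ER Hsp90 that folds Toll-like receptors and integrins, read 2732 and 3158 units, a difference of 0.21 with 0.27 in its other probe set. Hspa13, a microsomal Hsp70 relative, read 338 and 383 units, and its 3 probe sets above the floor lay between 0.18 and 0.36. These 3 genes therefore differed by 0.18 to 0.25 in the probe sets taken for them, and each of their 7 probe sets above the floor was higher.

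The lectin chaperones hold glycoproteins through their trimmed sugars, and both read higher. Calr, the soluble one, read 2967 and 3516 units, and its probe sets differed by 0.25 and 0.24. Canx, its membrane-bound partner, read 2849 and 3002 units, with differences of 0.08 and 0.05. The difference of Canx is within the spread between probe sets of a gene.

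Protein disulfide isomerases form and rearrange disulfide bonds in the ER. Pdia6 read 1401 and 1796 units, a difference of 0.36, the largest among the ER genes that are not J proteins, with 0.13 in a second and dimmer probe set. Pdia4 read 431 and 501 units in its only probe set, a difference of 0.22. Pdia5 read 36.2 and 41.5 units, close to background, and differed by 0.20. Pdia3, the partner of Calr and Canx in glycoprotein folding, is read here by 1 probe set that was below background on both arrays, at 19.9 and 20.9 units, so its level was not measured. The 3 isomerases above background were thus higher by 0.20 to 0.36.

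**Figure D2:**
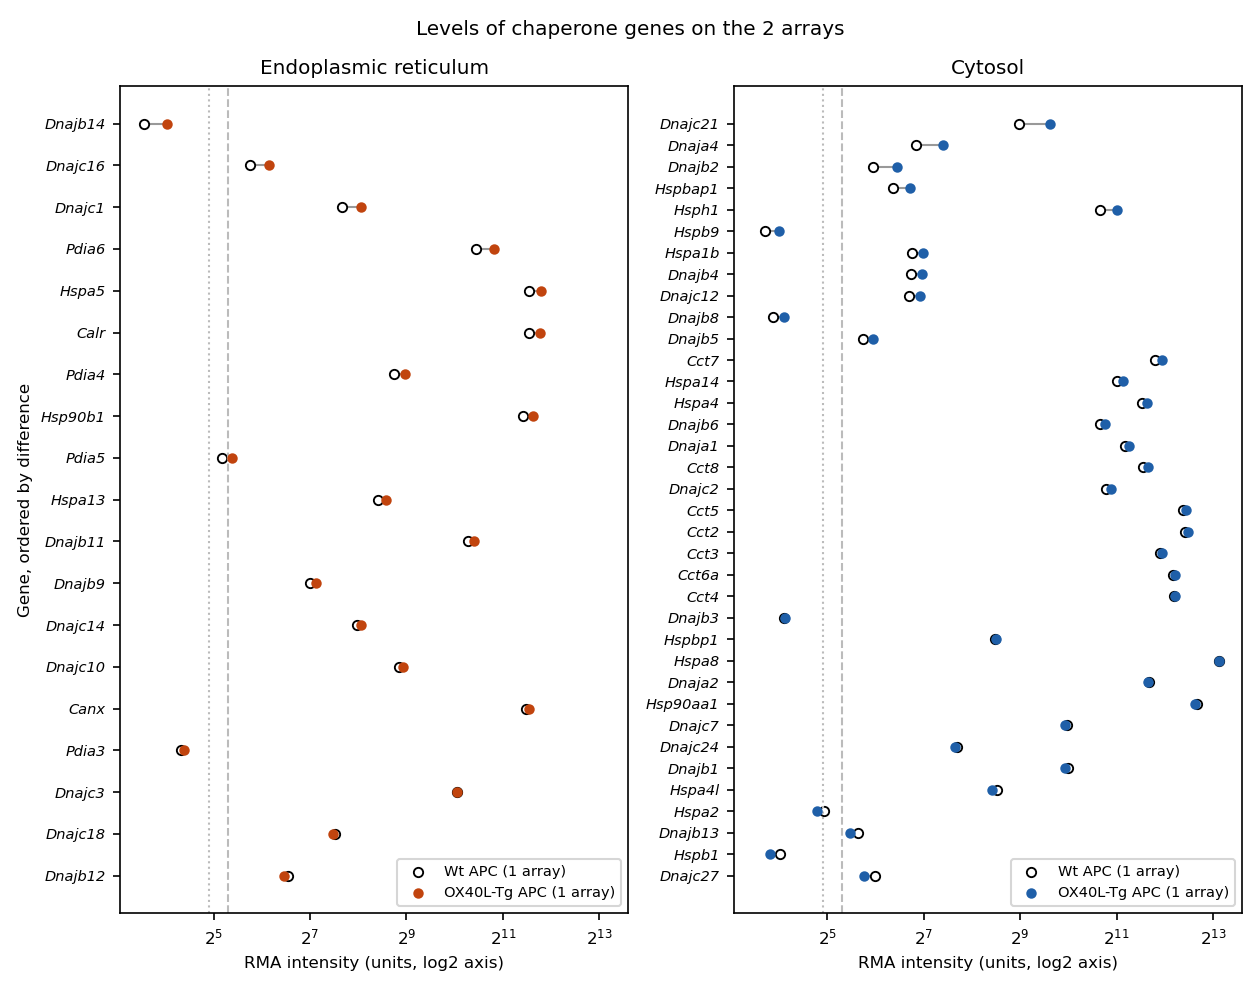
RMA intensity (log2 axis) of each ER gene (left) and cytosolic gene (right) above the floor, with the Wt APC array as an open circle and the OX40L-Tg APC array as a filled one. Genes are ordered by their difference, and the dotted and dashed lines are the background levels of 30.0 units (Wt APC) and 39.4 units (OX40L-Tg APC). Filled circles lie right of open ones for 17 of 19 ER genes, while Dnajb12 and Dnajc18 at the bottom run the other way.

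J proteins of the ER were more divided. Dnajc1, a membrane J protein that binds Hspa5, read 204 and 266 units, a difference of 0.38, with 3 of 3 probe sets higher, the lowest by 0.11. Dnajc16, a membrane J protein, read 54.0 and 71.0 units, with differences of 0.40 and 0.44. Dnajb14, an ER membrane J protein of the same kind as Dnajb12, had the largest ER difference, 0.48, but was below background at 11.7 and 16.3 units and passed the floor only with OX40L-Tg APC. Dnajb12 itself read 93.8 and 88.3 units, lower in both probe sets. Dnajc18 had probe sets from -0.32 to 0.33.

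The soluble J proteins of the ER lumen, which are classic targets of the unfolded protein response, differed by little. Dnajb11, which helps Hspa5 to bind its clients, read 1238 and 1362 units, a difference of 0.14. Dnajb9, which represses the sensor IRE1 through Hspa5, read 128 and 139.6 units, a difference of 0.12. Dnajc10, a disulfide reductase for misfolded proteins, read 459 and 490.4 units, and its 3 probe sets lay between 0.10 and 0.13. Dnajc3, an inhibitor of the kinase PERK known as p58IPK, read 1054 and 1064 units, a difference of 0.01, but 4 of its 5 probe sets were lower, down to -0.17. So the direction of Dnajc3 depends on the probe set taken, and it also turned, to -0.0045, with the median of all genes subtracted.

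J proteins and the other chaperones were also counted apart in each compartment. Without J proteins, 9 of 9 ER genes read higher with a median of 0.21, and 15 of 19 cytosolic genes with a median of 0.06. The ER count includes Pdia3, which was below background on both arrays. Among J proteins, 8 of 10 in the ER and 11 of 17 in the cytosol read higher, with medians of 0.11 and 0.10. These counts were made after the values were seen and stand beside 54.0% for all genes. Whether the compartments differ more outside the J proteins was not tested.

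**Figure D3:**
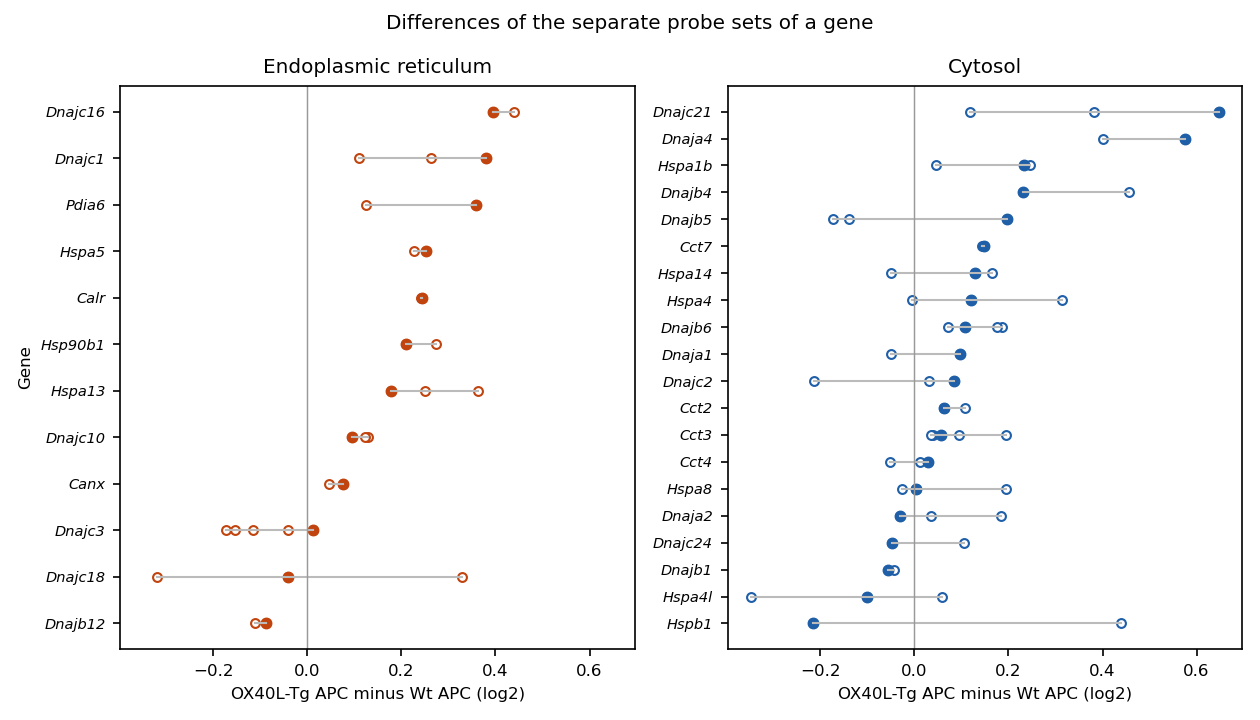
Log2 difference (OX40L-Tg APC minus Wt APC) of every probe set above the floor for ER genes (left) and cytosolic genes (right) with at least 2 of them; the filled circle is the probe set taken for the gene, the one with the highest mean level. All probe sets of a gene had 1 sign in 10 of 12 ER genes and in 9 of 20 cytosolic genes, beside 63.5% of all 4195 genes with at least 2 probe sets above the floor.

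Genes that carry an ER stress element in their promoter were set apart by sequence alone. This element, bound by ATF6 together with the factor NF-Y, is CCAAT followed by CCACG with 9 bases of any kind between them, and was searched on both strands of the RefSeq windows from 250 bases before to 50 bases after each start (assembly GRCm38.p6). Of the 83 chaperone genes, 69 had such a window. The element was present in 6 of 17 ER genes with a window and in 0 of 40 cytosolic, 0 of 6 mitochondrial and 0 of 6 other genes, against 0.119% of all 32851 windows (39 windows). It contains a CCAAT box, which 37.4% of all windows hold. The sites of the 6 genes are shown because these are the ER genes whose differences can be read beside a known response element. Capitals mark the fixed letters of the element, each site is written in the direction of the element, and Hsp90b1 has 2 sites:
Hspa5, chr2:34772017-34772051, plus strand: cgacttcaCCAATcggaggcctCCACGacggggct
Calr, chr8:84847067-84847101, plus strand: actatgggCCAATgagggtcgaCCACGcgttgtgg
Hsp90b1, chr10:86705630-86705664, minus strand: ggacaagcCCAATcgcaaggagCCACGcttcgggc
Hsp90b1, chr10:86705525-86705559, plus strand: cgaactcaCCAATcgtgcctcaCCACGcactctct
Canx, chr11:50325792-50325826, minus strand: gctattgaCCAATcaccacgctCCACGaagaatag
Pdia6, chr12:17266483-17266517, plus strand: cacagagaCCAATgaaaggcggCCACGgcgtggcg
Dnajc3, chr14:118937819-118937853, plus strand: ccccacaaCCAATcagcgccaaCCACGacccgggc

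In Hspa5 the element ends 46 bases before the start site, nearer than in Pdia6 (79 bases), Dnajc3 (86 bases), Hsp90b1 (88 bases for the nearer site), Canx (126 bases) and Calr (143 bases). The 250 bases before the start of Hspa5 are given whole, as the best known promoter of this response, with the element's fixed letters in capitals. They also hold further CCAAT boxes, in both directions, which are left in lower case. The box just upstream of the element is followed, at the element's own spacing, by ccaac in place of CCACG. Only exact matches were searched, so this inexact match was not counted, and the single marked site is not a full count of related sites.
Hspa5, chr2:34771840-34772089, plus strand: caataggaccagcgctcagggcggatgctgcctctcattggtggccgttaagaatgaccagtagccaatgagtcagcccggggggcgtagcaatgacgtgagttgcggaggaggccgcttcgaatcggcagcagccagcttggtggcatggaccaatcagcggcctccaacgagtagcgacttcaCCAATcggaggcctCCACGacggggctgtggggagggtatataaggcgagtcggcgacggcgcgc

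All 6 of these ER genes read higher with OX40L-Tg APC, with a median of 0.23 and values from 0.01 for Dnajc3, which turns with other settings as given above, to 0.36 for Pdia6. The 11 other ER genes with a window and above the floor had a median of 0.14, and 10 of them were higher. Nearly all ER genes with a window read higher, so direction could not separate genes with an exact match from those without. Elements with a mismatch or outside the window were counted as absent. Outside the chaperone genes, 9 more genes with the element were above the floor and 8 of them read higher, with a median of 0.20, or 0.08 with the mean of all probe sets. Of the 7 above background on both arrays, 6 read higher, with a median of 0.12. These counts stand beside 54.0% of all genes. The smallest of the higher values, 0.01 to 0.02, lie near the median of all genes, 0.02. Creld2, an ER folding factor, read 861 and 1214 units and Syvn1, a ubiquitin ligase of ER-associated degradation, 328 and 378 units, whereas Hnrnpa3, an RNA-binding protein, read 4177 and 4037 units. Acacb and Derl3, also among the higher, were below background on both arrays.

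**Figure D4:**
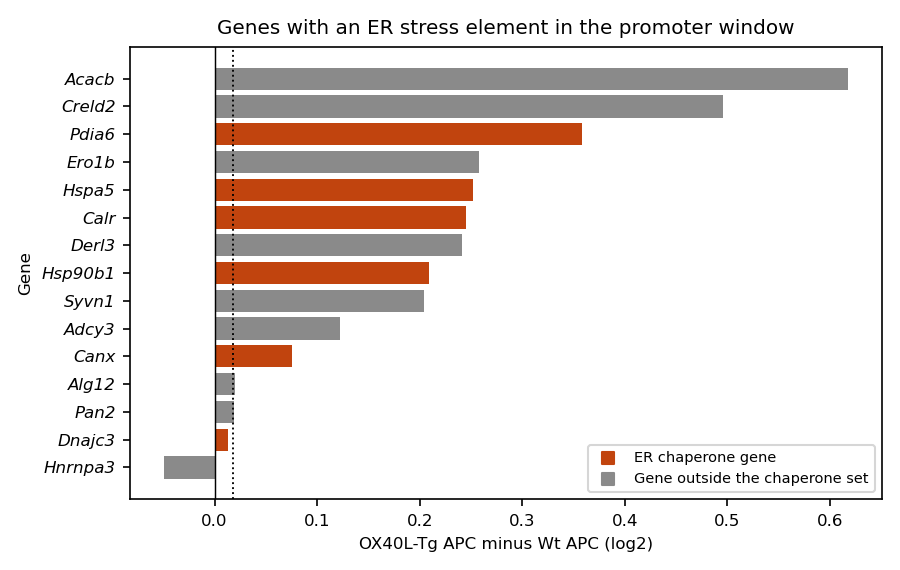
Log2 difference (OX40L-Tg APC minus Wt APC) of the 15 genes above the floor that have an ER stress element in the promoter window; orange bars are ER chaperone genes and grey bars other genes. The dotted line is the median of all genes above the floor, 0.02. Bars point to the right for 14 of 15 genes, against 54.0% of all genes. Hnrnpa3 is the exception, and Dnajc3 at 0.01 lies left of the dotted line.

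The second form of the element, ATTGG and CCACG with 1 base between them, holds a CCAAT box read backwards. It was searched on both strands and found in 0.0365% of windows and in 1 chaperone gene, Dnajb11. Over the 8 genes above the floor with this form, 5 read higher and the median was 0.11, beside 54.0% and 0.02 for all genes. Of the 7 outside the chaperone set, 4 read higher, with a median of 0.08. The heat shock element, searched on both strands as GAA, TTC and GAA with 2 bases between neighbours, was found in 0.603% of windows and holds no CCAAT box. Of the 69 chaperone genes with a window, Hsph1, Dnajb6 and Hspe1 held an exact match. Elements with a mismatch or outside the window were not counted, so other heat shock targets can be missed. Hspe1 has 2 overlapping sites on opposite strands, of which 1 is shown. Sites before the start are shown for comparison with the ER elements, with the fixed letters in capitals:
Hspe1, chr1:55088056-55088084, plus strand: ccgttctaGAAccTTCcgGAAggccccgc
Dnajb6, chr5:29735844-29735872, plus strand: agctccgaGAAtcTTCcgGAAcgctagac

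Genes with an exact match to the heat shock element showed no common direction. Hspe1 differed by -0.02, Dnajb6, a J protein that blocks protein aggregation, by 0.11, and Hsph1 by 0.34. Over all 47 genes above the floor with this element, 25 read higher and the median was 0.0049, beside 54.0% and 0.02 for all genes.

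The abundant cytosolic chaperones that all cells use were nearly level. Hspa8, the constitutive Hsp70, read 8899 and 8926 units, a difference of 0.0043, with probe sets between -0.03 and 0.19 and a turn to -0.01 with the median of all genes subtracted. Hsp90aa1, an inducible Hsp90 that many kinases need, read 6489 and 6331 units, a difference of -0.04. Dnajb1, the J protein partner of Hspa8 and a classic heat shock target, read 1014 and 975 units, lower by 0.06 and 0.04 in its probe sets. Dnaja1, which helps Hsp70 with newly made proteins, read 2299 and 2460.3 units, and its other probe set had the opposite sign at -0.05. None of these 4 genes differed by more than the spread between probe sets of a gene.

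The stress-induced Hsp70 read slightly higher, and the small heat shock genes were not measurable. Hspa1b, which is hardly made without stress in most cells, read 107 and 126 units, with 3 of 3 probe sets higher, by 0.05 to 0.24. Its coding sequence is nearly the same as that of Hspa1a, so the signal may come from both genes. Hspb1, a small heat shock protein that protects the cytoskeleton, was below background at 16.2 and 14.0 units. All 7 small heat shock genes were below background on both arrays. Hspa2, known from testis, read 30.4 and 27.7 units, with the second value below background.

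Exchange factors of the Hsp110 family differed unequally. Hsph1 read 1623 and 2049.6 units in its only probe set, a difference of 0.34 at the 90.0th percentile of all genes. Hspa4 read 2934 and 3192 units, a difference of 0.12, with its 3 probe sets between -0.0045 and 0.31. Hspa4l read 366 and 341 units, with probe sets from -0.35 to 0.06. So Hsph1 stood apart from its relatives by size, on the evidence of 1 probe set.

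The subunits of CCT differed little. All 7 measured subunits above the floor read higher, against 54.0% of all genes, by 0.03 to 0.15 with a median of 0.06. Of the 7, 0 reached 0.2, a size that 19.8% of all genes reached upwards. Cct7 read 3570 and 3956 units and had the largest difference, 0.15, with 0.14 in its other probe set. Cct2 read 5504 and 5751 units, Cct5 read 5305 and 5589.8 units and Cct8 read 3009.7 and 3214 units, with differences of 0.06, 0.08 and 0.09. Cct3 differed by 0.06, with 5 of 5 probe sets above the floor higher, and Cct6a by 0.03. Cct4 read 4647 and 4743 units, and its 3 probe sets ran from -0.05 to 0.03, with a mean that turned the direction to -0.0038. Tcp1, the first subunit of the same ring, is not caught by the symbol rule and read 5816 and 5758 units, a difference of -0.01. Each of these differences is near the size of the spread between probe sets or below it.

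Cytosolic J proteins included the largest differences of the whole set. Dnajc21, which works in the late maturation of the large ribosomal subunit, read 501 and 784 units, a difference of 0.65 or 1.57-fold. Its other probe sets above the floor differed by 0.38 and 0.12, so the size rests on the brightest of 3. Dnaja4, a J protein linked to sterol metabolism, read 114 and 169.7 units, a difference of 0.57, with 0.40 in its other probe set. Dnajb2, a J protein that delivers ubiquitylated clients to the proteasome, read 61.8 and 87.3 units in its only probe set, a difference of 0.50. These 3 were named for being among the highest differences, so their common direction follows from that choice. Of 17 cytosolic J proteins above the floor 11 read higher, against 54.0% of all genes, and 6 read lower. The lowest of these were Dnajc27, a Rab-like GTPase with a J domain, at 63.4 and 54.2 units, and Dnajb13, an axonemal J protein, at 50.0 and 44.1 units, with differences of -0.23 and -0.18.

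The largest negative difference of the set was mitochondrial. Dnajc15, a J protein of the inner membrane that tempers the respiratory chain, read 2062 and 1489 units in its only probe set, a difference of -0.47 or 1.39-fold lower. It stood at the 5.15th percentile of all genes. Dnajc19, a relative at the same protein import motor, read 549 and 514 units, with both probe sets above the floor lower, by 0.10 and 0.13. Hspa9, the mitochondrial Hsp70 of that motor, went the other way, at 2015 and 2304 units with probe sets from 0.04 to 0.36. Hspe1, the Hsp10 lid of the chaperonin, read 4771 and 4707 units, a difference of -0.02. Dnaja3, which regulates mitochondrial DNA and cell death, read 399 and 428 units, a difference of 0.10 that turned to -0.0091 with the mean of all its probe sets. Mitochondrial import components thus differed in both directions.

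Among genes of other places, Dnajc9, a nuclear histone chaperone, read 1777 and 1650.5 units, a difference of -0.11. Dnajc8, a splicing factor, read 2513 and 2436 units, a difference of -0.05. Dnajc5b had the largest difference of this group, 0.41, but was below background on both arrays and passed the floor only with OX40L-Tg APC.

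**Figure D5:**
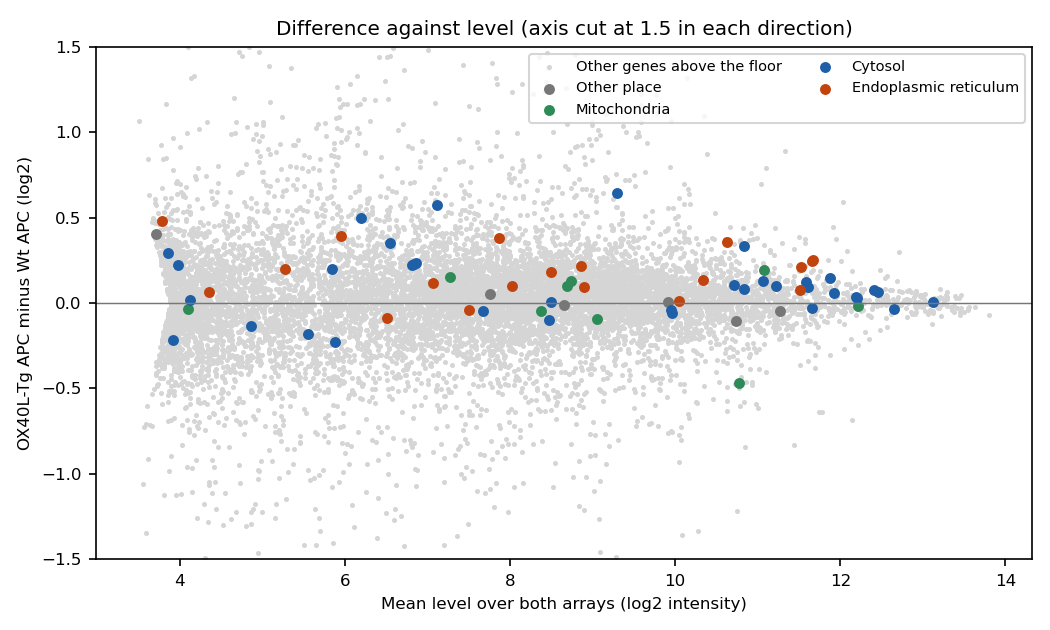
Log2 difference (OX40L-Tg APC minus Wt APC) against the mean log2 level over both arrays for all genes above the floor (grey) and for chaperone genes by compartment (colours); the vertical axis ends at 1.5 in each direction. Grey points narrow towards high levels, where Hspa5, Calr and Hsp90b1 lie at 0.21 to 0.25 and Hspa8 at 0.0043.

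Other folding genes, which the symbol rule leaves out, again had the larger median in the ER. Of 55 listed, 52 had a value and 49 were above the floor, of which 39 read higher, with a median of 0.13, against 54.0% of all genes. Of the 14 ER folding factors, 13 read higher and 8 by at least 0.2, against 19.8% of all genes, with a median of 0.22, or 0.12 with the mean of all probe sets of a gene. Creld2, Manf, Sdf2l1 and Hyou1 differed by 0.50, 0.39, 0.38 and 0.36. All but Hyou1 were named for the size of their differences, so their being high follows from that choice. Hyou1, the exchange factor of Hspa5, read 633 and 814 units. P4hb, the founding disulfide isomerase, read 2496 and 2908 units, a difference of 0.22. Erp29 was the exception at -0.13. Of 15 cytosolic cochaperones, 13 read higher but 3 by at least 0.2, a share near that of all genes. Their median was 0.12, or 0.10 with the mean of all probe sets, close to the ER value under that setting. Unc45a, a myosin chaperone, had the largest difference of these, 0.37.

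Sensors and factors of the unfolded protein response did not share 1 direction, with 8 of 11 higher, against 54.0% of all genes. Their median was 0.20, beside 0.02 for all genes above the floor. Ddit3, the factor CHOP, read 129 and 229 units, a difference of 0.83, and Atf4, which induces it, differed by 0.44. Ern1, which encodes IRE1, and Atf6 differed by 0.59 and 0.55, with other probe sets at 0.12 and 0.31. Ddit3, Atf4, Ern1 and Atf6 were named for the size of their differences. Eif2ak3, which encodes PERK, read 142 and 144 units, a difference of 0.03 that turned to -0.0027 with all genes corrected for level by lowess. Xbp1, the target of IRE1, was lower in 4 of 4 probe sets, by 0.11 to 0.23. The other lower genes of this group were close to 0 and had probe sets of both signs. The array does not separate the spliced form of Xbp1 from the unspliced one. Ddit3 and Ern1 were the 2 of these 49 genes that reached 1.5-fold, against 3.85% of all genes.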

How the data were processed

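RNA of 2 cultures of mouse CD4 T cells was hybridised to 1 Affymetrix HT MG-430 PM array each. Per the submitters' processing notes, RMA gave the deposited values, which are intensity values of probe sets and lie on a linear scale. No version of RMA is given in the labels. RMA subtracts background, gives the arrays 1 distribution and combines probes, so it compresses low values and hides global shifts. Log2 was taken here. Each gene took its probe set with the highest mean. Of 45141 probe sets, 28898 had 1 symbol, 551 several and 15692 were unnamed. All 83 chaperone genes matched RefSeq by Entrez number, and 0 symbols changed.

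The members, their compartments and the lists were chosen with earlier results of these data known. Named were a set of major chaperones, the 6 largest differences each way, genes past 1.5-fold and the brightest of each compartment; of the other folding genes, up to 8 with the largest differences, with Tcp1, P4hb and Hyou1. Dnajc18, Dnajb12, Dnajb6, Hspa4l, Dnajc19, Syvn1, Xbp1, Eif2ak3, Erp29, Hnrnpa3, Acacb and Derl3 were named outside this rule, after their values were seen, to complete a family or a count. No test was possible, and the number of arrays limits the precision. Python 3.11.15 was used with matplotlib 3.10.9, numpy 2.4.6, pandas 2.3.3 and, for a lowess alternative (span 0.3), statsmodels 0.14.6. The code was tested on simulated data. Promoter windows came from RefSeq (GRCm38.p6), and motif matches there are descriptions.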

Additional observations from a re-analysis of the deposited data

How the results depend on the processing

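Medians, counts past 1.5-fold and differences of named genes were recomputed under 10 other settings, 8 planned and 2 added after the data were seen (only genes above background, and J proteins left out). A gene that missed the floor or has no unshared probe set gave no value there, and marker sums were not recomputed. The ER median stayed between 0.13 and 0.21 and the cytosolic median between 0.06 and 0.09, and the ER median was the higher of them in all 10, by 0.06 to 0.15. Subtracting the median of all genes cannot change this gap. All settings use the same pair of arrays, so none of them stands in for a replicate. With the median of all genes subtracted, 16 of 19 ER and 24 of 36 cytosolic genes read higher. The mitochondrial median lay between -0.04 and 0.09 and changed sign in 3. The count at least 1.5-fold higher was 0 with the mean of all probe sets, where Dnajc21 differed by 0.30, and 0 without J proteins, of which Dnajc21 is one, and stayed at 1 in the other 8. The count at least 1.5-fold lower was 0 in all 10. Of 581 values of 64 named genes, 10 moved by more than the SD of 0.14 between probe sets, among them Ern1 to 0.11 with the mean of all probe sets. Many of these values could not move. A change of floor leaves a gene's own difference as it was, and subtracting the median shifts all genes alike. A gene with a single probe set also keeps its value under the mean. The count is therefore no measure of stability. The medians of other folding genes and of genes with a promoter element were recomputed only after the data were seen. Under the mean of all probe sets the median of the 14 ER folding factors was 0.12 and that of the cytosolic cochaperones 0.10. The median of genes outside the chaperone set with an ER stress element was 0.08 under that setting, and 0.07 without a floor. With the floor required on both arrays, which removes genes that passed on 1 array, the ER median was 0.16. No paired analysis was possible because each group has 1 array. Intensity near background limits Pdia3, Dnajb14 and the small heat shock genes.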
